A study of Mus musculus with 2 samples.

Results

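The Eph receptors other than Epha4 were followed across 2 single-nucleus RNA-seq libraries of embryonic mouse neocortex. The set was chosen by gene symbol: the 10 genes Epha3, Epha5, Epha6, Epha7, Epha10, Ephb1, Ephb2, Ephb3, Ephb4 and Ephb6, each found on 1 line of the 33938 genes listed in the files. The study compared 1 library with the genotype label MEN1-F/F and 1 with the label MEN1-NCKO, and its title concerns menin, EphA4 and late-born neurons of the cortex. Neither the labels nor the file headers give the age of the embryos, how many were pooled, the deleted part of Men1 or the Cre line behind the deletion. Because each label has a single library, differences between replicates were not measured and nothing was tested. Every interval below is a 95% interval for counting error alone.

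Eph receptors are the largest family of receptor tyrosine kinases, and their ligands, the ephrins, are held on the membrane of neighbouring cells. A-class receptors bind mainly the lipid-anchored ephrin-As and B-class receptors mainly the transmembrane ephrin-Bs, and both sides of the contact can signal, most often as repulsion. In the developing cortex the family is known for axon guidance and topographic maps, for the positioning of migrating neurons, and for contacts between progenitors.

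After filtering, 6130 nuclei with 26850856 UMIs were kept from the F/F-labelled library and 9807 nuclei with 41472945 UMIs from the NCKO-labelled library, with medians of 3665 and 3581 UMIs per nucleus. The libraries shared 15 barcodes. Men1, the targeted gene, was at 10.5 CPM in the F/F-labelled library (281 UMIs; CPM is the gene's UMIs per 1000000 UMIs of the nuclei counted) and at 13.5 CPM in the NCKO-labelled one (558 UMIs). It was thus not lower where the label names a knockout, and a 3' count can miss a deletion elsewhere in the transcript, so Men1 does not check the labels here. Nuclei were clustered without any Eph or ephrin gene and named from marker lists, and a name ending in -like says only which marker list scored best. The 15 populations compared, each of 100 nuclei or more per library, were 11 such classes and 4 clusters without a name (clusters 8, 9, 10 and 22, whose 10 leading genes include Tshr and Ntf3, Ntf3 and Egfem1, Nwd2 and Esr1, and Nr4a2 and Fst). Direct- and indirect-pathway striatal-like neurons were among them although the label gives the tissue as cortex. The radial glia-like cluster raised 9 of its 9 listed markers but had Ttr, Cdc20b, Dnah12 and Cfap44 among its leading genes, of which Dnah12 and Cfap44 belong to motile cilia. Their part in the results for this class was not tested. Upper-layer-like nuclei lay in cluster 2 (740 nuclei of the F/F-labelled and 470 of the NCKO-labelled library) and cluster 3 (412 and 709), and migrating neuron-like nuclei in clusters 16 (144 and 144), 26 (11 and 145) and 44 (45 and 8), so each class is made up differently in the 2 libraries.

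The promoters of the 10 genes were read from RefSeq (GRCm38.p6), since the study's title points to epigenetic activation and menin is known as a subunit of complexes that methylate histone H3 at promoters. All 10 genes matched, Epha7 with 2 starts. The 250 bases before the start held between 10 and 27 CG dinucleotides, against a median of 6 over 32817 promoter windows of the same length. In 7 of the 10 genes the window had an observed over expected CG ratio of at least 0.6 with over 50% G and C, as did 30.7% of all windows. Ephb1 (0.551), Ephb3 (0.598) and Ephb4 lay below that ratio. None of the 10 held TATAAA on either strand, which 12.4% of all windows do, and the E-box CAGATG, searched on both strands, was found in Epha6 alone, 137 bases before the start, and in 14.5% of all windows. The windows of Epha3, Epha5, Epha6 and Ephb1, the receptors that most of the values below concern, are shown 5′ to 3′ on the strand of the gene, with each CG in capitals.
Epha3, chr16:63864176-63864425, minus strand: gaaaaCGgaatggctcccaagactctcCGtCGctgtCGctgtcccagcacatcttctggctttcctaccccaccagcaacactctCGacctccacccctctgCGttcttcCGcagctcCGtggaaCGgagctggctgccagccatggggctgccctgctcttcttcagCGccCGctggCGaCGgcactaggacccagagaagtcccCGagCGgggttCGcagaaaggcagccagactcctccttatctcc
Epha5, chr5:84417383-84417632, minus strand: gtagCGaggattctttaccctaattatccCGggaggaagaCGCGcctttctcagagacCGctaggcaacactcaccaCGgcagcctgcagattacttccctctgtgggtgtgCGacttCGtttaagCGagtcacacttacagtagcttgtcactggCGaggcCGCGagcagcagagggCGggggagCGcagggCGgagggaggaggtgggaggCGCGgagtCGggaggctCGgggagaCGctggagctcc
Epha6, chr16:60605532-60605781, minus strand: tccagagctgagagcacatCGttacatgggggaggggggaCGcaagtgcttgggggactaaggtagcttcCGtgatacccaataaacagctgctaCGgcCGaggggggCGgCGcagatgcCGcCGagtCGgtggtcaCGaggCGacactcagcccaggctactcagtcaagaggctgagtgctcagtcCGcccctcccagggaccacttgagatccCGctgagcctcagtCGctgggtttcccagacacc
Ephb1, chr9:102354694-102354943, minus strand: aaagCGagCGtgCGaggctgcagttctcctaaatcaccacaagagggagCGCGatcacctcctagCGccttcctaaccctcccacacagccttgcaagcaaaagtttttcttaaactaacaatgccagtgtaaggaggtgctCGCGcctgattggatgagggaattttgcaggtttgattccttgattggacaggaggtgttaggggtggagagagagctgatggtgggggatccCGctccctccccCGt
These windows hold 16, 20, 15 and 10 CG dinucleotides, so Ephb1 has the fewest of the set. They are shown as a description of the genes: these libraries measure RNA, not chromatin.

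Receptors differed widely in how their RNA was spread over the populations. A receptor was said to mark a population when its level there was at least 2 times the mean of the other compared populations in both libraries, with at least 20 UMIs in each. Of the 8 receptors with enough UMIs to be examined, 5 marked at least 1 population, in 12 pairs of receptor and population, where 26.3% of all genes examined marked at least 1. Epha3 marked intermediate progenitor-like, migrating neuron-like and upper-layer-like nuclei, but none of clusters 8, 9 and 10. Epha5 marked the migrating neurons, Epha6 cluster 9, Ephb1 the deep layers and both striatal classes, and Epha10 MGE-like and striatal-like neurons. Epha7, Ephb2 and Ephb6 marked none, and Ephb3 and Ephb4 were too low to be examined.

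**Figure D1:**
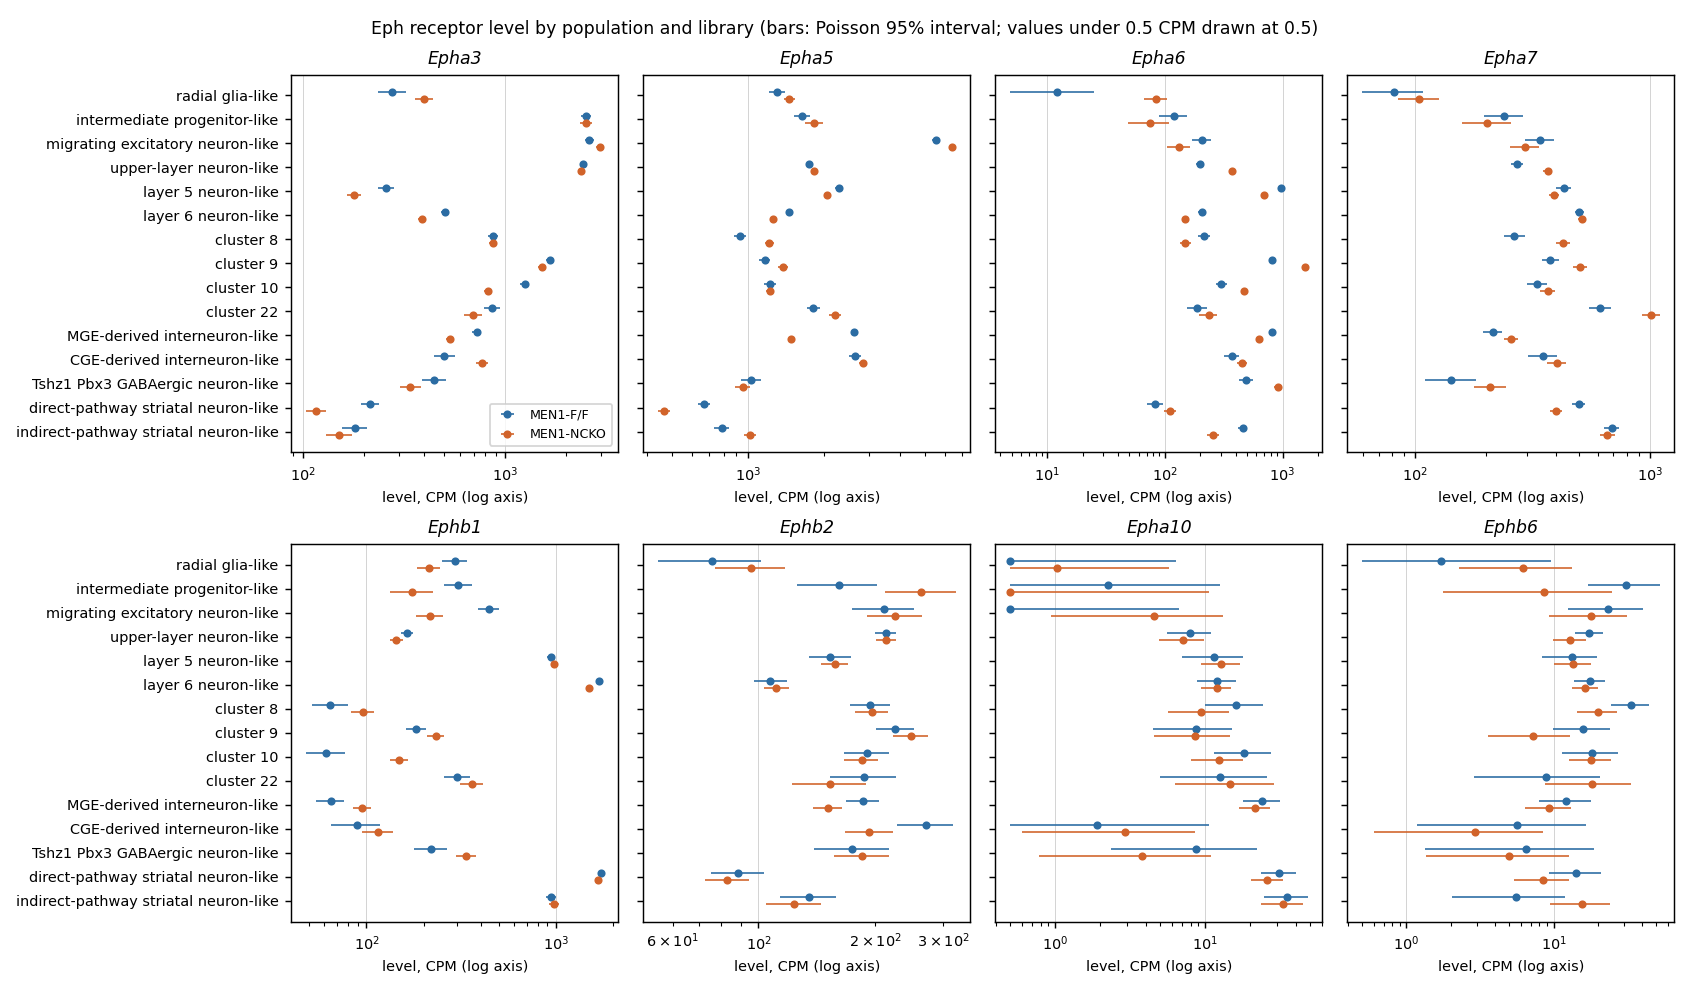
Level of 8 Eph receptors (x, CPM on a log axis that differs between panels) in the 15 compared populations (y), with 1 point per library and its Poisson 95% interval. Among these populations Epha3 reached its highest levels in the migrating, intermediate progenitor-like and upper-layer-like ones in both libraries, whereas Ephb1 was highest in direct-pathway striatal-like and layer 6-like nuclei.

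Epha3, an A-class receptor known from axon repulsion, was high along the path from intermediate progenitors to upper-layer neurons. In migrating neuron-like nuclei the F/F-labelled library had 2611 CPM (95% interval 2477 to 2749) and the NCKO-labelled library 2938 CPM (2809 to 3071). In intermediate progenitor-like nuclei it was 2513 and 2507 CPM, and in upper-layer-like nuclei 2420 and 2380 CPM. Among the 15 compared populations these held the 3 highest levels in both libraries, and the intervals of the intermediate progenitor-like and upper-layer-like levels overlap within each library. All 3 marks were lost at the finer clustering (Leiden resolution 2) and kept in the other 4 filters or clusterings. Clusters 8 (872 and 875 CPM), 9 (1671 and 1520 CPM) and 10 (1249 and 823 CPM) were lower and not marked. Their best-scoring list was the upper-layer one, though too low for a name. Layer 5-like nuclei (259 and 179 CPM) and layer 6-like nuclei (502 and 389 CPM) were far below the 3 marked populations. Of the classes too small to be compared, subplate-like neurons held 1109 and 1280 CPM and Cajal-Retzius-like nuclei 1456 and 1789 CPM. The lowest of the compared populations were striatal-like neurons (181 CPM in the indirect class of the F/F-labelled and 117 CPM in the direct class of the NCKO-labelled library). To compare shares of nuclei at 1 depth, every nucleus was thinned to 1000 UMIs, which left out at most 9 nuclei of a population named here. Of upper-layer-like nuclei, 78.4% in the F/F-labelled library and 73.7% in the other then held an Epha3 UMI (92.7% and 89.0% unthinned, median depths 3399.5 and 3475 UMIs). Microglia, which do not belong to the neural lineage, served as background: 3 of 40 microglia-like nuclei of the NCKO-labelled library held a UMI (7.5%, median depth 2095 UMIs). The 19 microglia-like nuclei of the F/F-labelled library were too few for a share and held 31 Epha3 UMIs, 12 of them in 1 nucleus. These make 596 CPM, above the layer 5-like and layer 6-like levels of that library, against 62.2 CPM (6 UMIs) in the NCKO-labelled one. Background in the F/F-labelled library is therefore poorly known. The gene covers 320.6 kb of chromosome 16 (63543534 to 63864175, minus strand, GRCm38). The genes whose levels were most alike across the 15 populations of the F/F-labelled library were Ntng2, which encodes the membrane-anchored netrin-G2 (r = 0.90), F13a1 (0.87) and 6530402F18Rik (0.85). In the NCKO-labelled library these correlations were 0.87, 0.78 and 0.86. All such correlations are descriptions, over 15 populations from the same library, among 9396 genes searched.

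Epha5, a receptor of ephrin-As in axon mapping, was broadly present, and of the compared populations migrating neurons had the highest level. Migrating neuron-like nuclei reached 5548 CPM (interval 5353 to 5748) in nuclei labelled F/F and 6428 CPM (interval 6237 to 6624) in nuclei labelled NCKO, 3.64 and 4.24 times the mean of the other populations. The next of the compared populations in each library was CGE-like interneurons, at 2655 and 2847 CPM, followed in the F/F-labelled library by MGE-like interneurons at 2625 CPM, whose interval overlaps with that of CGE-like interneurons. It was also present in glia, with levels of 1301 and 1457 CPM for radial glia-like nuclei and of 2618 and 2671 CPM for astrocyte-like nuclei. Thinned to 1000 UMIs, 61.8% and 57.7% of radial glia-like nuclei held an Epha5 UMI (78.2% and 79.4% unthinned), and 12.5% of the 40 microglia-like nuclei did. Direct-pathway striatal-like neurons had the lowest level of the compared populations, at 672 and 467 CPM. Its closest genes in the F/F-labelled library, Xrcc6 of DNA repair (r = 0.82), Desi1 (0.78) and Prkra (0.76), were less alike in the NCKO-labelled library (0.34, 0.64 and 0.56).

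Epha6, an A-class receptor, ranged over the compared populations from 12.1 CPM in radial glia-like to 974 CPM in layer 5-like nuclei of the F/F-labelled library, and from 74.4 CPM in intermediate progenitor-like nuclei to 1567 CPM in cluster 9 of the NCKO-labelled library. It marked cluster 9, with 817 CPM (2.47 times the mean of the other populations) in the F/F-labelled and 1567 CPM (4.64 times) in the NCKO-labelled library. In layer 5-like nuclei it stood at 974 and 698 CPM, and there the smaller cluster 35 held 4233 and 1883 CPM from 21 and 83 nuclei, against 609 and 535 CPM in cluster 6. Levels above those of every compared population lay in populations too small to be compared, such as cluster 30 (4064 and 2910 CPM from 19 and 119 nuclei) and cluster 21 (2355 and 3380 CPM from 31 and 202 nuclei). Hippocampal-like neurons did so in the F/F-labelled library alone (2854 CPM from 45 nuclei, with 43.7% of the 734 UMIs in 3 nuclei). In the NCKO-labelled library they held 1503 CPM from 66 nuclei, below cluster 9. Cluster 21 alone held 450 of the 13443 Epha6 UMIs of the F/F-labelled library and 4199 of the 25146 of the NCKO-labelled library. Epha6 covers 952.0 kb of chromosome 16 (59653483 to 60605531, minus strand). The gene most like it, 4930547E14Rik (r = 0.85 and 0.94), lies within it on the other strand. No source used here says whether the counting used strand, so whether the pair shares reads is not known here. 4930547E14Rik had 545 and 967 UMIs. Fndc9 (0.82 and 0.60) and Nmnat2, an enzyme of NAD synthesis in axons (0.81 and 0.67), came next.

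Epha7, known for boundaries of cortical areas and for contact with ephrin-A5, was spread more evenly. In the F/F-labelled library its highest level among the compared populations was 689 CPM, in indirect-pathway striatal-like neurons, and in the NCKO-labelled library 1014 CPM, in cluster 22. Subplate-like neurons, with 49 and 110 nuclei, had 1270 CPM (1158 to 1389) and 1037 CPM (964 to 1115). The first lies above every compared population, and the interval of the second overlaps with that of cluster 22. Thinned to 1000 UMIs, 61.2% and 51.8% of them held an Epha7 UMI (95.9% and 89.1% unthinned), against 0 of 40 microglia-like nuclei (interval up to 8.81%). Radial glia-like nuclei were the lowest of the compared populations, at 81.0 and 104 CPM. Microglia-like nuclei of the F/F-labelled library held 135 CPM of Epha7 (7 UMIs), above the radial glia-like level there, and those of the NCKO-labelled library 41.5 CPM (4 UMIs). Zfp804a (r = 0.88 and 0.88), Adcy5, an adenylyl cyclase abundant in striatum (0.87 and 0.70), and Ocel1 (0.87 and 0.26) were the genes most like it.

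Epha10, which lacks kinase activity, was scarce: 463 and 622 UMIs in all kept nuclei. It marked indirect-pathway striatal-like neurons (35.1 and 32.9 CPM), direct-pathway striatal-like neurons (31.2 and 26.0 CPM) and MGE-like interneurons (23.9 and 21.5 CPM), and the intervals of these levels overlap. Most MGE-like UMIs lay in cluster 13, led by Sst (42.9 and 30.6 CPM from 45 and 66 UMIs). Cluster 5, with more nuclei, held 5.53 and 6.26 CPM. No Epha10 UMI was seen in radial glia-like or migrating neuron-like nuclei of the F/F-labelled library, and 1 and 3 in those of the NCKO-labelled library. Subplate-like neurons were higher, at 88.4 and 75.2 CPM. The MGE-like mark was lost in 3 of 5 other filters or clusterings, and the striatal marks in 1 of 5, the one that used every deposited barcode. Rgs17, a regulator of G-protein signalling (r = 0.97 and 0.89), Gm3739 (0.92 and 0.72) and Cltb, a clathrin light chain (0.91 and 0.89), followed its levels most closely.

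Ephb1, a B-class receptor known from axon guidance at the midline, was highest, among the compared populations, in the deep layers and the striatal-like classes. Its levels were 1716 CPM (1657 to 1777) and 1671 CPM (1623 to 1721) in direct-pathway striatal-like neurons, and 1673 and 1481 CPM in layer 6-like neurons. Indirect-pathway striatal-like neurons (942 and 973 CPM) and layer 5-like neurons (941 and 970 CPM) had levels with overlapping intervals in each library. Upper-layer-like nuclei held 164 and 144 CPM, so Ephb1 was higher in layer 5-like and layer 6-like nuclei than there, the reverse of Epha3. Both receptors were higher in layer 6-like than in layer 5-like nuclei. Subplate-like neurons, too few to be compared, held 506 and 336 CPM of Ephb1, below their levels of Epha3. Across the 15 populations the levels of Ephb1 and Epha3 ran against each other (r = -0.46 and -0.70). Thinned to 1000 UMIs, 75.2% and 69.5% of layer 6-like nuclei held an Ephb1 UMI (96.4% and 95.1% unthinned), as did 13.8% and 12.6% of upper-layer-like nuclei (32.1% and 30.9% unthinned) and 2 of 40 microglia-like nuclei of the NCKO-labelled library. Microglia-like nuclei of the F/F-labelled library held 173 CPM of Ephb1 (9 UMIs), above the upper-layer-like level there, and those of the NCKO-labelled library 41.5 CPM (4 UMIs). Layer 6-like and direct-pathway nuclei stayed marked in each of the 5 other ways of clustering, but the layer 5-like and indirect-pathway levels, close to the limit of 2 (2.02 times the others in the F/F-labelled library for each), stayed marked in 2 and 1 of them. The most alike gene, 9630041A04Rik (r = 0.95 and 0.95), lies within Ephb1 on the other strand (Ephb1 covers 432.6 kb of chromosome 9, from 101922128 to 102354693). That gene had 780 and 1237 UMIs, and whether these share reads with Ephb1 is not known here. Xpr1, a phosphate exporter (0.86 and 0.87), and Tle4, a co-repressor and listed layer 6 marker (0.80 and 0.77), came next.

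Ephb2, a receptor also known from excitatory synapses, varied least among the receptors with over 1000 UMIs in each library, with a highest level 3.57 times the lowest in the F/F-labelled and 3.17 times in the NCKO-labelled library, over the compared populations. Among these, CGE-like interneurons were highest in the former (271 CPM) and intermediate progenitor-like nuclei in the latter (263 CPM), while the lowest levels were in radial glia-like nuclei of the F/F-labelled (75.8 CPM) and direct-pathway striatal-like nuclei of the NCKO-labelled library (83.2 CPM). Hippocampal-like neurons, with 45 and 66 nuclei, stood at 373 and 299.5 CPM. Gm20208 (r = 0.85), Rnf165, a ubiquitin ligase (0.84), and Ralgps1 (0.84) were most like it in the F/F-labelled library, with 0.72, 0.79 and 0.55 in the other.

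Ephb3, Ephb4 and Ephb6 were low. Ephb3 had 76 and 89 UMIs in all kept nuclei and Ephb4 97 and 111. Within the compared populations both were highest in radial glia-like nuclei, Ephb3 at 20.7 CPM (12 UMIs) and 23.6 CPM (23 UMIs) and Ephb4 at 24.1 CPM (14 UMIs) and 14.4 CPM (14 UMIs). In astrocyte-like nuclei Ephb3 stood at 21.9 and 21.0 CPM and Ephb4 at 32.8 and 23.1 CPM, from at most 11 UMIs each. Ephb4, the ephrin-B2 receptor of veins, reached 102 CPM in the 48 endothelial-like nuclei of the NCKO-labelled library (15 UMIs, interval 56.9 to 168). The F/F-labelled library had 4 such nuclei, too few for a level. Ephb6, which lacks kinase activity, had 414 and 531 UMIs in all. Cajal-Retzius-like nuclei held 49.96 CPM (27.3 to 83.8) and 56.3 CPM (38.5 to 79.5) of it, from 41 and 111 nuclei. Among the compared populations cluster 8 was highest in both libraries (33.4 and 20.01 CPM). Nek3 (r = 0.89), Chga (0.82) and Herc3 (0.81), the genes most like Ephb6 in the F/F-labelled library, gave 0.19, 0.25 and 0.62 in the NCKO-labelled library, where few UMIs stand behind each Ephb6 level.

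The next question was whether the receptors differed between the libraries within a population. A ratio is the level in the NCKO-labelled library over that in the F/F-labelled library, and a receptor was counted as different when the levels, each with 5 CPM added, were at least 1.5-fold apart and the population held at least 50 of its UMIs over both libraries. Where 2 values are given side by side, the F/F-labelled library comes first. Over all kept nuclei 0 of the 10 receptors differed by this rule, where 1.15% of all genes did. Ratios there ran from 0.741 for Ephb4 and 0.758 for Ephb3, both scarce, and 0.805 for Epha3 (1151 and 927 CPM) to 1.21 for Epha6 (501 and 606 CPM). Epha4, by contrast, was at 253 and 159 CPM over all kept nuclei, a ratio of 0.630 (0.608 to 0.651), and 7 of the 15 populations had a lower level in the NCKO-labelled library by the same rule, and none a higher one. Within the 15 populations, 102 pairs of receptor and population could be compared, and 20 of them (19.6%) were at least 1.5-fold apart, 11 higher and 9 lower in the NCKO-labelled library. The mean over the same pairs of the share of all genes that far apart was 9.37%. Epha6 gave 8 of the 20, and without it 12 of 87 pairs (13.8%) remained. No receptor compared was higher in the same library in every population, and the median log2 ratio of the 102 pairs was 0.00.

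**Figure D2:**
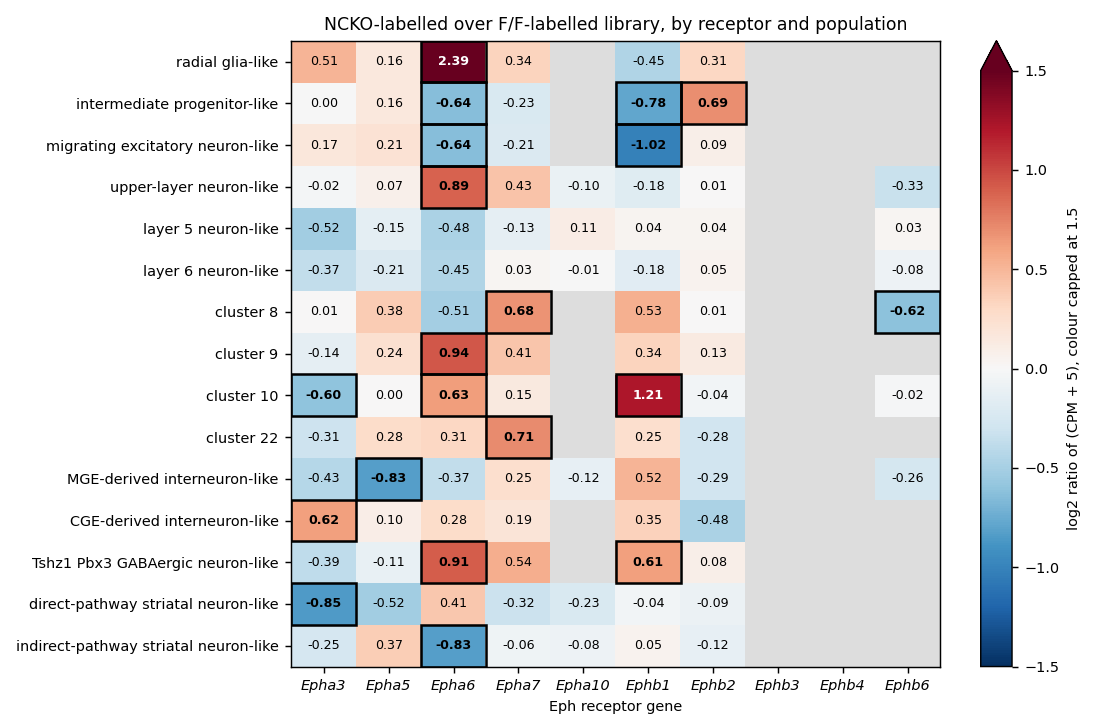
Log2 ratio of (CPM + 5) in the NCKO-labelled over the F/F-labelled library for each receptor (x) and population (y), with grey for pairs under 50 UMIs and framed bold values for pairs at least 1.5-fold apart. Epha6 has 8 framed values of both signs, Ephb1 has 4, and layer 5-like and layer 6-like nuclei have none.

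In the youngest excitatory populations Ephb1 was lower in the NCKO-labelled library. Migrating neuron-like nuclei of the F/F-labelled library had 243 Ephb1 UMIs (441 CPM) and those of the other 143 UMIs (216 CPM), a ratio of 0.489 (0.395 to 0.603). The cluster with 144 nuclei in each library, cluster 16, showed the difference most clearly, at 417 and 130 CPM (ratio 0.312, 0.220 to 0.434), whereas in clusters 26 and 44 the ratios of 0.606 and 0.779 have intervals that include 1. Thinned to 1000 UMIs, 31.2% (24.8 to 38.1) and 15.3% (11.3 to 19.9) of nuclei held a UMI (49.5% and 26.9% unthinned, median depths 2456 and 2052 UMIs). The ratio stayed past 1.5-fold in all 10 alternatives that bear on it. In this population 2 of 6 receptors differed, against 13.9% of all genes. The other, Epha6 (207 and 131 CPM), was higher instead in the NCKO-labelled library under 2 other clusterings and short of 1.5-fold or reversed in 5 of 10 alternatives, and in cluster 16 its ratio of 1.499 has an interval (0.856 to 2.66) that includes 1.

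Intermediate progenitor-like nuclei had 3 of 6 receptors at least 1.5-fold apart, with 14.8% of all genes. Ephb1 was again lower, at 304 and 175 CPM from 136 and 61 UMIs (ratio 0.574, 0.417 to 0.781), but cluster 18, which holds most of the class, had 328 and 248 CPM with a ratio whose interval includes 1 (0.756, 0.544 to 1.04), and the class ratio fell short of 1.5-fold in 5 of 10 alternatives. Ephb2 was higher, at 161 and 263 CPM (1.63, 1.19 to 2.26), and fell short in 3 of 10. In cluster 18 its ratio was 1.26, with an interval that includes 1 (0.834 to 1.89), and in cluster 43, with 28 and 30 nuclei, it was 2.22 (1.25 to 4.14). Epha6, with 53 and 26 UMIs, had an interval that includes 1 (0.377 to 1.02), and at most 9 nuclei held all 53 of the F/F-labelled library. Its ratio fell short of 1.5-fold or changed sign in 6 of 10 alternatives, and over all 10 the log2 ratio ran from -0.95 to 0.71. Epha3 and Epha5 were close to even in both populations: Epha3 had ratios of 0.998 in intermediate progenitor-like and 1.13 in migrating neuron-like nuclei, and Epha5 had 1.11 and 1.16. The first joins unlike clusters, since Epha3 had a ratio of 0.931 in cluster 18 and of 1.57 (1.27 to 1.95) in cluster 43.

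In upper layers, which hold late-born neurons, the upper-layer-like nuclei had 1 of 8 receptors at least 1.5-fold apart, with 6.43% of all genes. For Epha6 the F/F-labelled library had 900 UMIs (197 CPM) and the NCKO-labelled library 1780 UMIs (370 CPM), a ratio of 1.87 (1.73 to 2.03). The 2 clusters differed: cluster 3 had 279 and 482 CPM (1.73, 1.57 to 1.90) and cluster 2 had 126 and 105 CPM (0.827, 0.676 to 1.01). Cluster 3 holds a larger part of the class in the NCKO-labelled library, and with the clusters weighted by their numbers of F/F-labelled nuclei the log2 ratio went from 0.89 to 0.40, under the 1.5-fold limit. The UMIs were concentrated, with 72.6% and 67.5% of them in the 5% of nuclei that held the most, and 9.90% and 13.4% of thinned nuclei held at least 1 (19.0% and 23.8% unthinned). Epha3, which marks these nuclei, had a ratio of 0.983, and Epha5 one of 1.05, although in cluster 2 both were higher in the NCKO-labelled library (1.16 and 1.34). Epha4 in the same nuclei was at 258 and 170 CPM (0.657, 0.6003 to 0.719).

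**Figure D3:**
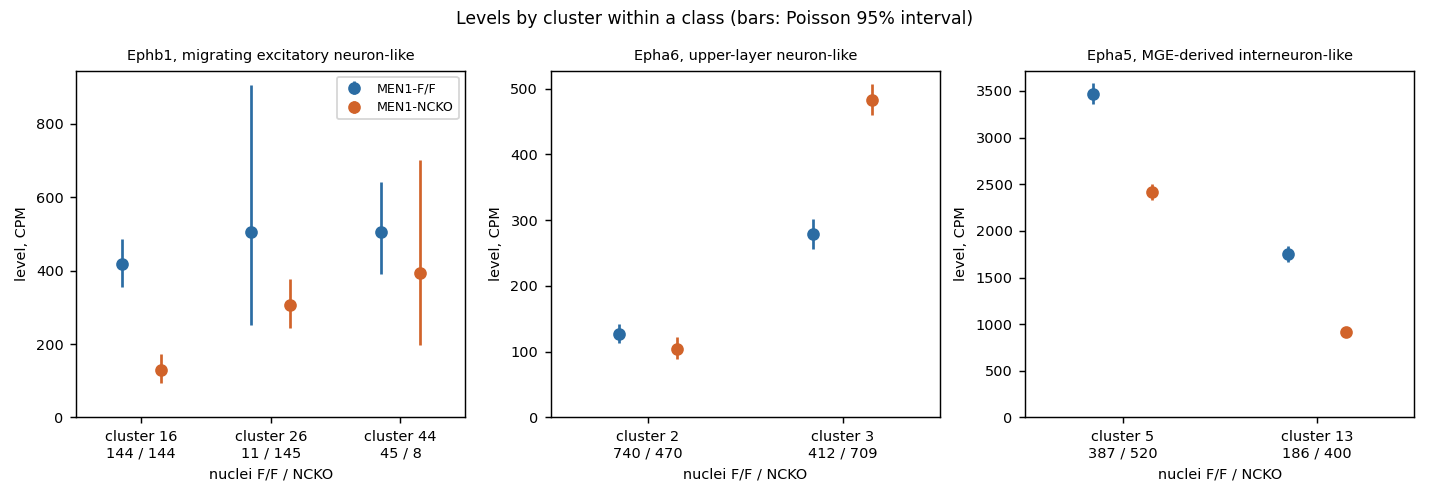
Level (y, CPM from 0) of Ephb1, Epha6 and Epha5 in the clusters (x, with nuclei of each library) that make up migrating neuron-like, upper-layer-like and MGE-like nuclei, with Poisson 95% intervals. Ephb1 differs most in cluster 16, Epha6 is higher in the NCKO-labelled library in cluster 3 but not in cluster 2, and Epha5 is lower in both MGE-like clusters.

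In the deep layers 0 of 8 receptors differed in layer 5-like nuclei and 0 of 8 in layer 6-like nuclei, where 5.97% and 4.35% of all genes did. The layer 6-like receptor Ephb1 was at 1673 and 1481 CPM, a ratio of 0.885 (0.857 to 0.914), and in layer 5-like nuclei at 941 and 970 CPM. Within the layer 6-like class Epha3 was over 1.5-fold lower in the NCKO-labelled library in 3 of 5 clusters: the largest, cluster 1, with 468 and 784 nuclei (457 and 196 CPM, 0.428, 0.388 to 0.472), cluster 25 (0.580, 0.420 to 0.791) and cluster 46 (0.617, 0.470 to 0.819). Its ratio was 0.826 in cluster 42 and 1.19 in cluster 15. Epha5 was that far apart in cluster 1, at 1320 and 818 CPM (0.620, 0.588 to 0.652), and its ratios in the other 4 clusters lay between 0.751 and 1.20. In layer 5-like nuclei cluster 35 had ratios of 0.302 for Epha3, 0.495 for Epha5, 0.445 for Epha6 and 0.377 for Epha7, from 21 and 83 nuclei. These clusters were picked out after their values were seen, and cluster 46 held 8 and 40 nuclei. The share of all genes that far apart was not measured within single clusters of a class. These counts therefore cannot be set against such a share or read as particular to the receptors.

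Radial glia-like nuclei had 1 of 6 receptors at least 1.5-fold apart, with 15% of all genes. Epha6 had 7 UMIs (12.1 CPM) in 220 F/F-labelled nuclei and 82 UMIs (84.2 CPM) in 373 NCKO-labelled nuclei, a ratio of 6.98 (3.24 to 17.9). Of the 82 UMIs, 86.6% lay in 19 nuclei. Thinned to 1000 UMIs, 1.38% (0.286 to 3.99) and 3.85% (2.12 to 6.37) of nuclei held an Epha6 UMI, and in microglia-like nuclei of the NCKO-labelled library 1 of 40 did (2.5%, 0.0633 to 13.2), at median depths of 2157 and 2095 UMIs (2227.5 in the F/F-labelled radial glia-like nuclei). Unthinned shares were 3.18% and 8.04%. The intervals overlap with that of microglia-like nuclei, which rests on 40 nuclei, so at this depth the shares cannot be told apart from background. In the NCKO-labelled library 1 nucleus alone held 11 of the 82 UMIs. The ratio was past 1.5-fold in all 9 alternatives in which the class could be compared, between 1.32 and 2.71 on the log2 scale.

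None of the 4 unnamed clusters reached the score of 0.5 (mean log2 fold of a list's markers) needed for a name. The upper-layer list scored best in clusters 8 (0.27), 9 (0.282) and 10 (0.061), and the subplate list in cluster 22 (0.123). They are thus not counted in the upper-layer-like class, although 3 of them score nearest to it. Cluster 9, the population marked by Epha6, had 1 of 6 receptors at least 1.5-fold apart, with 8.66% of all genes: Epha6 itself, at 817 CPM (1129 UMIs) and 1567 CPM (2387 UMIs), a ratio of 1.92 (1.79 to 2.06). Thinned shares of nuclei with a UMI were 38.9% and 51.2% (61.4% and 73.5% unthinned). Cluster 10 had 3 of 7 apart, with 8.87% of all genes. Ephb1 was at 61.3 and 148 CPM (2.42, 1.87 to 3.16), Epha6 at 301 and 468 CPM (1.55, 1.38 to 1.76) and Epha3 at 1249 and 823 CPM (0.659, 0.614 to 0.706). The 61.3 CPM of Ephb1 were below the 173 CPM (9 UMIs) of microglia-like nuclei in the F/F-labelled library. Thinned shares with an Ephb1 UMI were 8.37% (5.04 to 12.9) and 12.4% (9.38 to 16.0), with intervals that overlap each other and that of NCKO-labelled microglia-like nuclei (5%, 0.611 to 16.9). In cluster 22, 1 of 6 differed, with 12.3% of all genes: Epha7 at 617 and 1014 CPM (1.64, 1.44 to 1.89), with a UMI in 42.7% and 60% of thinned nuclei (80.6% and 86.4% unthinned). In cluster 8, 2 of 7 differed, with 9.32% of all genes: Epha7 at 265 and 427 CPM (1.61, 1.43 to 1.82) and Ephb6 at 33.4 and 20.01 CPM from 46 and 43 UMIs (0.599, 0.386 to 0.929). Thinning brought the log2 ratios of Epha7 in cluster 8 to 0.45 and of Epha6 in cluster 10 to 0.32, both under the limit, and adding 20 CPM in place of 5 brought that of Ephb6 to -0.42.

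Interneurons differed by receptor. In MGE-like interneurons 1 of 8 receptors was at least 1.5-fold apart, with 6.57% of all genes. It was Epha5, with 5603 UMIs (2625 CPM) in the F/F-labelled library and 5066 UMIs (1474 CPM) in the other, a ratio of 0.561 (0.540 to 0.583). Both clusters of the class were lower in the NCKO-labelled library, cluster 13, led by Sst, at 1751 and 918 CPM (0.524, 0.492 to 0.559), and cluster 5 at 3470 and 2415 CPM (0.696, 0.663 to 0.730), which is less than 1.5-fold. In thinned nuclei 74.1% and 53.5% held a UMI (93.9% and 76.4% unthinned, median depths 3090 and 2974.5 UMIs), and the ratio stayed past 1.5-fold in all 10 alternatives, at its smallest -0.59 on the log2 scale. In CGE-like interneurons Epha5 was at 2655 and 2847 CPM, and the 1 of 6 receptors apart (12% of all genes) was Epha3, at 502 and 772 CPM (1.54, 1.34 to 1.78), which lost the call in 2 of 10 alternatives. The 502 CPM were below the 596 CPM (31 UMIs) of microglia-like nuclei in the F/F-labelled library. Thinned shares of CGE-like nuclei with an Epha3 UMI, 26.4% (20.4 to 33.2) and 34.4% (29.6 to 39.5), had overlapping intervals. In Tshz1 Pbx3-like GABAergic neurons 2 of 6 were apart, with 12.4% of all genes: Epha6 at 488 and 918 CPM (1.88, 1.62 to 2.20) and Ephb1 at 218 and 336 CPM (1.54, 1.22 to 1.96). The second fell short of 1.5-fold in 3 of 10 alternatives. With clusters built on F/F-labelled nuclei only, the log2 ratio of Epha6 there was 0.45.

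In striatal-like neurons Ephb1, which marks both classes, was close to even. It had ratios of 0.974 (0.931 to 1.02) in the direct-pathway and 1.03 (0.949 to 1.13) in the indirect-pathway class, and both intervals include 1. In the direct-pathway class 1 of 7 receptors was apart, with 6.78% of all genes: Epha3, at 215 and 117 CPM (0.543, 0.467 to 0.631). The 215 CPM were below the 596 CPM (31 UMIs) of microglia-like nuclei in that library, and 65.1% and 64.0% of the UMIs lay in the top 5% of nuclei. Thinned shares with an Epha3 UMI, 10.7% (7.69 to 14.4) and 7.72% (5.64 to 10.3), had overlapping intervals. In the indirect-pathway class 1 of 7 was apart, with 8.54% of all genes: Epha6, at 460 and 257 CPM (0.557, 0.482 to 0.643). Neither held under every alternative, with log2 ratios of -0.48 and -0.41 at their smallest.

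**Figure D4:**
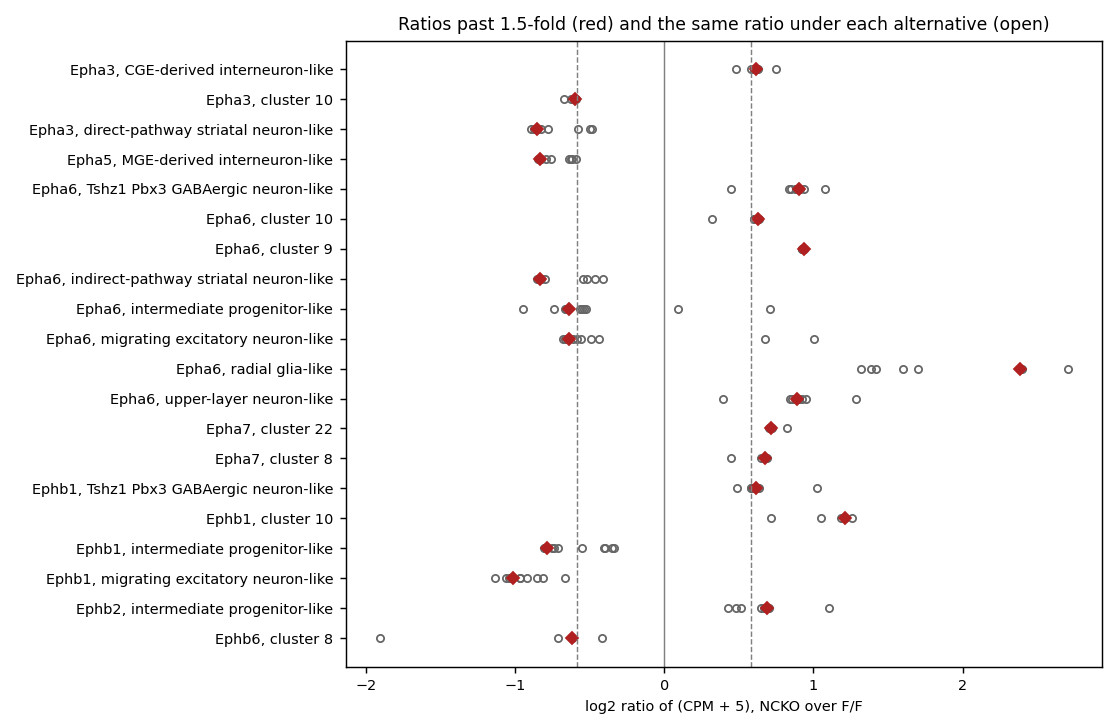
The 20 ratios at least 1.5-fold apart (red diamonds) and the same ratio under each alternative (open circles) on a log2 axis, with dashed lines at 1.5-fold. The ratios of 7 pairs stay outside the dashed lines in every alternative drawn, among them Ephb1 in migrating neuron-like and Epha5 in MGE-like nuclei, and Epha6 in intermediate progenitor-like and migrating neuron-like nuclei crosses 0. For pairs in unnamed clusters only 5 alternatives were run, none with another filter or clustering.

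Other genes of the pathway were read from 3 lists. Over all kept nuclei, where 1.15% of all genes were at least 1.5-fold apart, 0 of 8 ephrins and 0 of 23 signalling partners were, and 1 of 3 measured other Eph receptors was, Epha4. Across the 15 populations the ephrins were apart in 8 of 75 pairs (10.7%, 4 higher and 4 lower), near the mean share of all genes over those pairs, 8.88%. The signalling partners were apart in 8 of 280 pairs (2.86%, 2 higher and 6 lower), where that mean was 9.43%. Efna5, the ephrin-A that several of these receptors bind, gave 7 of the 8 ephrin pairs: it was higher in the NCKO-labelled library in CGE-like (62.5 and 153 CPM), migrating neuron-like (50.9 and 101 CPM) and radial glia-like nuclei (77.5 and 146 CPM), and lower in clusters 8, 9 and 10 and in indirect-pathway striatal-like neurons (537 and 351 CPM). Efnb2 was higher in radial glia-like nuclei (86.1 and 149.9 CPM). Among signalling partners, Vav3 was lower in upper-layer-like nuclei (102 and 35.3 CPM, ratio 0.345, 0.288 to 0.412) and in cluster 8 (257 and 106 CPM), and Rasa1, a Ras GTPase-activating protein, was lower in CGE-like (278 and 179.7 CPM) and Tshz1 Pbx3-like neurons (276 and 165 CPM). Sipa1l1, a Rap GTPase-activating protein, was lower in migrating neuron-like (142 and 76.96 CPM) and the kinase Rock2 in radial glia-like nuclei (176 and 112 CPM), and the kinase Src was higher in upper-layer-like (21.9 and 35.5 CPM) and layer 6-like nuclei (19.5 and 33.2 CPM).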

How the data were processed

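Each library was made with the 10x Genomics 3' chemistry from nuclei, per the labels' protocols. The values deposited by the authors are raw counts of UMIs, 1 matrix of genes and barcodes per library. Per the file headers they come from Cell Ranger 6.1.0, and the submitters' processing notes name the build mm10 and Seurat, with no role. No source used here says whether counting used strand. Barcodes with under 500 genes or over 5% mitochondrial counts were left out, as were the highest Scrublet-style doublet scores (0.8% per 1000 barcodes, 336 and 924). The 2000 most variable genes, with Eph and ephrin genes left out, gave 30 principal components and Leiden clusters at resolution 1. The work ran in Python 3.11.15 with pandas 2.3.3, leidenalg 0.10.2, numpy 2.4.6, scikit-learn 1.9.0, scipy 1.17.1 and python-igraph 0.11.9. Of 49 clusters, those in which the mean log2 fold of a class's markers was highest, at least 0.5 and 0.1 over the next class, with at least 3 markers raised, were named, unless genes of another class led them. The naming rule was settled after the clusters had been seen.

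UMIs were summed per library and population and given as CPM, with exact Poisson, conditional binomial or Clopper-Pearson intervals at 95%. The ratio, interval and call were tested on simulated data. All 10 receptors are named, as are listed pathway genes at least 1.5-fold apart in the population described and, for each receptor with enough UMIs, the 3 genes with the highest Pearson correlation of log2(CPM + 5). The receptors and lists were chosen with earlier results of these data known. Gene positions come from GENCODE vM21, promoters from RefSeq.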

Additional observations from a re-analysis of the deposited data

Results flagged for a closer look

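For 3 receptors the libraries differed in opposite directions in 2 populations, each by at least 1.5-fold, and the difference between the populations was not tested. The log2 ratio of Epha3 was 0.62 in CGE-like interneurons and -0.85 in direct-pathway striatal-like neurons. That of Epha6 was 2.39 in radial glia-like nuclei, where 7 UMIs stand in the F/F-labelled library, and -0.83 in indirect-pathway striatal-like neurons. That of Ephb1 was 1.21 in cluster 10 and -1.02 in migrating neuron-like nuclei. Ephb1 kept its side of the 1.5-fold limit under all 10 alternatives run for migrating neuron-like nuclei. It did so under the 5 run for cluster 10, none of them with another filter or clustering. In that cluster the F/F-labelled level of Ephb1, 61.3 CPM, was below that of microglia-like nuclei (173 CPM from 9 UMIs), and the thinned shares of the libraries had overlapping intervals. Epha3 kept its side under all alternatives only in cluster 10, not in the 2 populations named here, and Epha6 did not in the indirect-pathway class. In those 2 populations the F/F-labelled levels of Epha3, 502 and 215 CPM, were below that of microglia-like nuclei (596 CPM from 31 UMIs). The thinned shares of the libraries had overlapping intervals in each.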

How the results depend on the processing

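No paired analysis was possible because each label has 1 library. The 20 ratios at least 1.5-fold apart were recomputed with 1 or 20 CPM in place of 5, median-ratio scaling, nuclei thinned to 1000 UMIs, clusters weighted by F/F-labelled nuclei and, for named classes, 5 other filters or clusterings. Of 164 values, 133 lay in the main interval, 27 outside it and 4 had the other sign: Epha6 in intermediate progenitor-like nuclei (0.0911 on the log2 scale with all deposited barcodes and 0.71 when clusters were built on F/F-labelled nuclei only) and in migrating neuron-like nuclei (1.004 at resolution 2 and 0.67 with those clusters). The cause was not tested. 7 of the 20 stayed past 1.5-fold in every alternative run. Those in clusters 9, 10 and 22 were run under 5 alternatives only, none with another filter or clustering. In a population of 1 cluster, the weighting by F/F-labelled nuclei returns the main ratio by construction. In the named classes 13 pairs were apart, 22 with no minimum of UMIs and 6 with all deposited barcodes, and between 10 and 16 otherwise. Over the 15 populations the 20 pairs became 32 with no minimum, where more low genes are compared. The 11 pairs marked in named classes became 6 with all deposited barcodes and 7 at resolution 2. Over all kept nuclei 0 of 10 differed in each alternative. The alternatives with another clustering of the same nuclei or a lower minimum of UMIs could not change this count, by construction. With all deposited barcodes no radial glia-like class could be compared. Median-ratio scaling moved the ratios by at most 0.06 (layer 6-like nuclei). With 1 library per label, no difference can be separated from a difference between embryos or preparations.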

Other observations

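Populations too small to be compared held the highest levels of several receptors. Cluster 23, led by Tfap2d and Thsd7a, had 7935 CPM of Epha3 (64 nuclei, F/F-labelled) and 5305 CPM (121 nuclei, NCKO-labelled), above the migrating neuron-like nuclei that were highest among the compared populations. It also had 6874 and 6608 CPM of Epha5. Epha3 was itself among the 10 leading genes of that cluster, as Epha6 was of clusters 21, 30 and 34, although neither gene was used to draw them. Cluster 36, led by Sfta3-ps and Tacr1, had the highest Epha10 level of the NCKO-labelled library, 114 CPM from 51 UMIs, with 79.5 CPM from 15 UMIs in the other. Cluster 32, which scored about alike for layer 5 and layer 6, held 1884 and 1670 CPM of Ephb1 in 36 and 92 nuclei, and each of the 36 nuclei held a UMI.

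The genes that lie within Epha6 and Ephb1 on the other strand had ratios of their own. 9630041A04Rik had 11 and 5 UMIs in migrating neuron-like nuclei (ratio 0.378, 0.103 to 1.18) and 3 and 22 UMIs in cluster 10 (4.18, 1.26 to 21.8), the same directions as Ephb1. 4930547E14Rik had 44 and 71 UMIs in upper-layer-like nuclei (1.53, 1.03 to 2.28), the direction of Epha6. Whether the pairs share reads was not tested.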
